A study of Mus musculus with 7 samples.

Results

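A set of 35 genes that carry cells from G1 through DNA replication and mitosis was followed in the cochlear epithelium of Brg1 knockout and control mice. The set is a list of names of known cell cycle genes with no threshold on a value, and all 35 were found among the 54532 genes of the deposited table. Of these, 2 encode G1 cyclins, 15 act in the G1/S transition and S phase, and 18 act in G2 and mitosis. Brg1, encoded by Smarca4, is an ATPase of the SWI/SNF family of chromatin remodelling complexes, which move nucleosomes. RNA was sequenced in bulk from the cochlear epithelium at embryonic day 16, in 4 libraries of genotype Brg1 knockout and 3 of genotype Control, all untreated. The labels give neither the way the gene was deleted, the exons removed and the strain, nor the number of embryos per library. They do not state whether replicates are separate animals, so each p-value measures the spread between these libraries, which may be technical.

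The cell cycle is driven by cyclins and the cyclin-dependent kinases they activate. Cdk4 and Cdk6, activated by D-type cyclins, phosphorylate the retinoblastoma protein, which frees E2F transcription factors to switch on genes for origin licensing and DNA synthesis, and a later wave controlled by the MuvB, B-Myb and FoxM1 proteins switches on the genes of mitosis. In the developing cochlea, the precursors of hair cells and supporting cells leave the cycle before hair cells differentiate, under control of the inhibitor p27, encoded by Cdkn1b. Many other cells of the cochlea continue to divide at this stage.

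Promoters of S phase genes and of mitotic genes differ in how often they hold certain short motifs. E2F factors bind sites such as TTTCGCGC or TTTGGCGC, MuvB complexes bind the cell cycle homology region TTTGAA, called CHR, and the factor NF-Y binds CCAAT boxes. The promoters of 5 members are printed because they show these arrangements in genes described below. The sequences are from RefSeq (GRCm38.p6), 5′ to 3′ on the strand of the gene, with the 150 bases before the start site followed by the first 30 bases of the transcript, and with every E2F, CHR and CCAAT match on either strand in capitals.
Cdc6: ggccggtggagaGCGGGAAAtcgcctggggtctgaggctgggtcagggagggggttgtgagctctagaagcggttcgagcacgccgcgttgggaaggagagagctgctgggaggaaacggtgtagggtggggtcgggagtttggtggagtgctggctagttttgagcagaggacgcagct
Mcm6: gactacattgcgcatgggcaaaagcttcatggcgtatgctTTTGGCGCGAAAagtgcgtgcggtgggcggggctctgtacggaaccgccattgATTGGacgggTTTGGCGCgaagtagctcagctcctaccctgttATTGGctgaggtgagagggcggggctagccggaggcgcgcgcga
Ccnb2: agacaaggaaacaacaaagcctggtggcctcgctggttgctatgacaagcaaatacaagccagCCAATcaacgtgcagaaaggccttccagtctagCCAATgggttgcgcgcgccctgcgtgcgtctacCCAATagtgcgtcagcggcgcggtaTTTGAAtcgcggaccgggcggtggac
Cdk1: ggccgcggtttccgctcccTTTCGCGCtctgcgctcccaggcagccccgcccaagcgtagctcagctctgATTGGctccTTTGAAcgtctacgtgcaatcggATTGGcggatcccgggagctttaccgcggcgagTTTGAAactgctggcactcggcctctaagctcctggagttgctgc
Cdc20: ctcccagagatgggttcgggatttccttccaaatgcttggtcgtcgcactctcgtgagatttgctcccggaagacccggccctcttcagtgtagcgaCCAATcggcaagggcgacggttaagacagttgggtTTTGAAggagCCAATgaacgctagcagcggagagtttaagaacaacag
The Cdc6 promoter, at chr11:98908001-98908180 on the plus strand, held 1 E2F match, on the opposite strand and starting 138 bases before the start site. The gene coordinates deposited with the counts begin Cdc6 at 98907801, before this window. The window thus lies inside the gene by those coordinates, and RefSeq places the start site further downstream. The Mcm6 promoter, at chr1:128359676-128359855 on the minus strand, held 3 E2F matches and 2 CCAAT boxes, and the first 2 E2F matches overlap each other. The deposited coordinates begin Mcm6, on this strand, at 128359664, so the whole window lies upstream of the gene by those coordinates. The Ccnb2 promoter, at chr9:70421525-70421704 on the minus strand, held 3 CCAAT boxes, 87, 54 and 21 bases before the start site, and a CHR that begins at base 5 of the transcript. The Cdk1 promoter, at chr10:69352883-69353062 on the minus strand, held both kinds of element, with 1 E2F match, 2 CHR and 2 CCAAT boxes. The Cdc20 promoter, at chr4:118437314-118437493 on the minus strand, held 1 CHR between 2 CCAAT boxes.

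Over the 300 bases from 250 before to 50 after the start, 26 of the 35 members matched an entry of the promoter table. The E2F search used 4 words, TTTCGCGC, TTTGGCGC, TTTCCCGC and TTTGCCGC, on both strands. An E2F match lay in 6 of 12 promoters of G1/S and S phase members (50%), in Cdc6, Cdt1, Mcm3, Mcm5, Mcm6 and Mcm7, against 1 of 14 promoters of G2/M members (7.14%), that of Cdk1. Of all 32851 mouse promoters of the table, 2.26% held a match. A CHR lay in 10 of 14 G2/M promoters (71.4%) and in 1 of 12 S phase promoters (8.33%), that of Mcm2, against 17.9% of all promoters. At least 1 CCAAT box lay in 13 of 14 G2/M promoters, all but Birc5, and in 7 of 12 S phase promoters, against 37.4% of all promoters. The promoters of Ccne1, E2f1 and Tyms and of the G2/M member Birc5 held no match to any of the 3 motifs, which says only that these letters are not in this window.

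**Figure D1:**
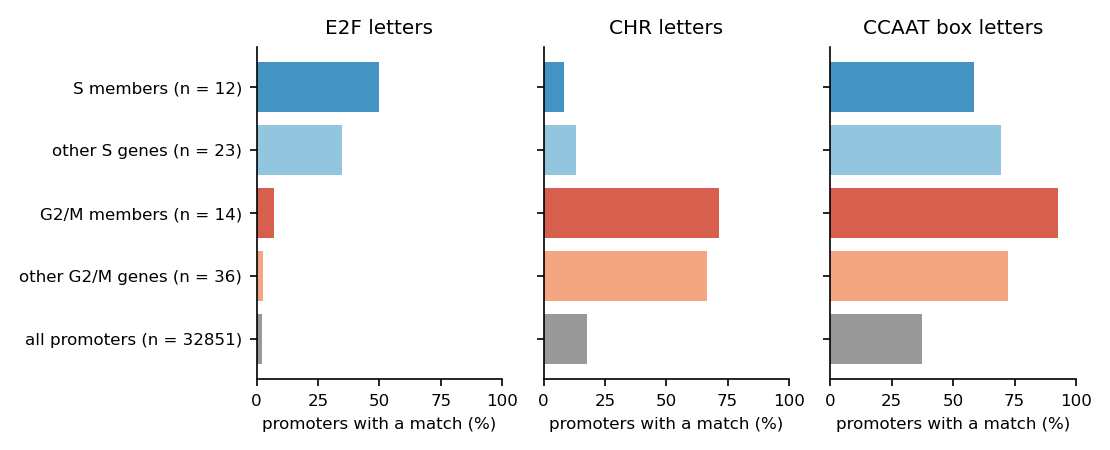
Share of promoters (percent, x axis) with an E2F, CHR or CCAAT match, with bars for the S phase members, other S phase genes, G2/M members, other G2/M genes and all promoters of the RefSeq table. The E2F share is 50% in the S phase members and 7.14% in the G2/M members, and the CHR share is 8.33% and 71.4%.

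Values are given as CPM, counts scaled to a common library size after TMM normalisation, so that libraries can be compared for 1 gene. Library totals ran from 16097811 to 18871636 counts. A raw count of 0 allows up to 3 counts, between 0.157 and 0.185 CPM, which is only a guide for the deposited values. The deposited counts are not raw: many hold fractions, which divide the libraries into 2 batches. The larger batch holds knockout replicates 1 to 3 and control replicates 1 and 2, the other knockout replicate 4 and control replicate 3. A constant added per gene and batch would leave such fractions, and this step is inferred from the values alone. Smarca4 was measured at 281, 239, 228 and 250 CPM in the knockout libraries and at 372, 356 and 376 CPM in the controls, so the groups did not overlap and transcript remained in every knockout library. Its log2 fold change, knockout over control, was -0.56 ± 0.09 (SE; edgeR adjusted p = 0.00338; exact two-sided permutation p = 0.0286, the smallest that 7 libraries allow).

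No member was called higher or lower in the knockout. edgeR's quasi-likelihood test with Benjamini-Hochberg adjustment over 17341 genes, at an adjusted p below 0.05, called 0 of 35 members in either direction, where it called 1.94% of all tested genes higher and 4.87% lower. DESeq2 and limma also called 0. All 35 members passed the filter on low counts, and the lowest deposited count of any member in any library was 193. At an unadjusted p below 0.05, 2 members were higher, Cdc6 and Ccnb2, and 1 was lower, Ccnd1, beside 9.39% and 11.8% of all tested genes. The knockout and control libraries did not overlap for the same 2 members, higher in the knockout, and for 0 lower, beside 9.27% and 11.5% of all genes. The members' shares were below those of all genes in each of these counts, but each difference amounts to a few genes of 35 and was not tested. In bulk tissue, fewer cells of a type and less RNA per cell cannot be told apart, so these values do not give the number of dividing cells.

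The intervals of the fit reported, which had no batch term, limit how large a change in the bulk RNA could be. They do not limit a change confined to some of the cells, and Smarca4 transcript remained in every knockout library. Every member's 95% confidence interval lay within a 1.5-fold change. They ran from 0.677-fold at the lower end for Ccnd1 to 1.499-fold at the upper end for Ccne2. On the log2 scale, 32 of 35 intervals lay within 0.5 of 0. These intervals do not allow for a constant added per gene and batch. Across the alternative fits, the log2 fold change of Ccne2 ran from 0.06 to 0.42 and that of Ccnd1 from -0.40 to -0.24. The fold change was above 0 for 28 of 35 members (80%), against 53.2% of all tested genes, with a median log2 fold change of 0.08 against 0.02. The number of members above 0 ran from 25 to 32 across the alternative fits, and the share was not tested.

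**Figure D2:**
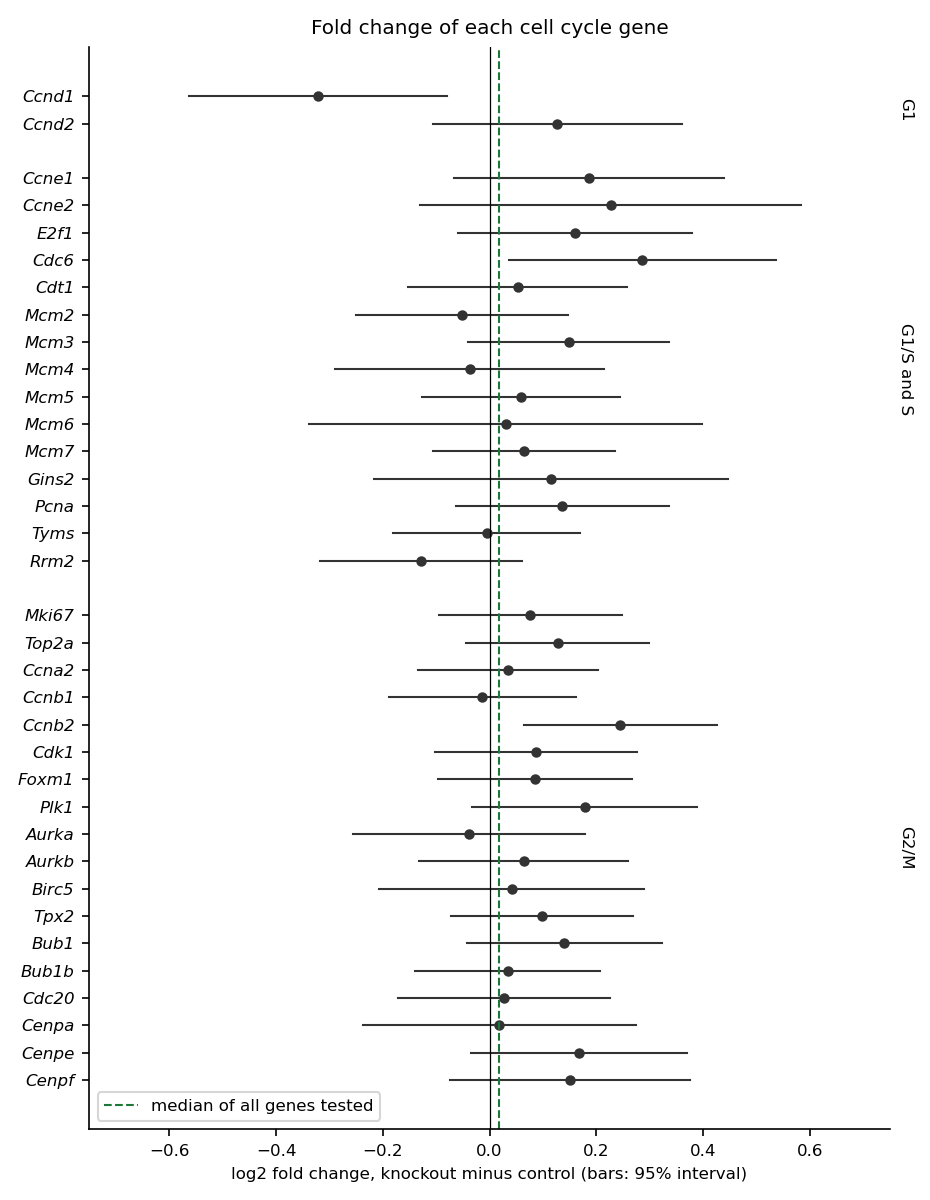
Log2 fold change, knockout over control, of each of the 35 members (points) with 95% confidence intervals from edgeR (lines); the dashed line is the median of all genes tested. All intervals lie between -0.56 and 0.58, and those of Ccnd1, Cdc6 and Ccnb2 leave out 0.

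Among the G1 cyclins, which link growth signals to the cycle, Ccnd1 had the lowest fold change of all members. Ccnd1, at chr7:144929931-144939925 (mm10, minus strand), was measured at 134, 141, 109 and 113 CPM in the knockout and 153, 175 and 138 CPM in the controls. The second knockout library was above the third control, so the groups overlapped. The log2 fold change was -0.32 ± 0.11, with an edgeR adjusted p of 0.113. Ccnd2, the other D-type cyclin in the set, was measured at 298, 342, 309 and 254 CPM against 279, 252 and 296 CPM, with a log2 fold change of 0.13 ± 0.11. The fold change of Ccnd2 thus had the opposite sign, and its groups overlapped at both ends. The difference between the 2 cyclins was not tested.

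The E-type cyclins activate Cdk2 at the entry to S phase, and E2f1 encodes an E2F factor that drives S phase genes. Ccne1 was measured at 19.5, 17.9, 20.3 and 18.2 CPM in the knockout and 14.9, 17.2 and 17.9 CPM in the controls, a log2 fold change of 0.19 ± 0.12. Ccne2 was measured at 15.6, 15.8, 15.8 and 14.6 CPM against 10.1, 16.8 and 12.8 CPM, a log2 fold change of 0.23 ± 0.16. The control libraries of Ccne2 spread more than any other member's, with a coefficient of variation of 25.4%, and the knockout libraries lay inside their range. E2f1 was measured at 27.3, 26.6, 26.8 and 25.8 CPM against 22.7, 22.1 and 26.7 CPM, a log2 fold change of 0.16 ± 0.10, and the third control lay among the knockout libraries. None of the 3 was called, with edgeR adjusted p from 0.395 to 0.473.

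Origin licensing loads the MCM helicase onto DNA before S phase. Cdc6, which loads it together with Cdt1, had the highest fold change of all members. Cdc6, at chr11:98907801-98923940 (mm10, plus strand), was measured at 20.7, 23.6, 18.6 and 21.2 CPM in the knockout and 16.6, 17.4 and 17.7 CPM in the controls. Every knockout library was above every control library, the closest pair being the third of each group. The log2 fold change was 0.29 ± 0.11, with an edgeR adjusted p of 0.172. Cdt1 was measured at 36.2, 35.8, 30.7 and 36.8 CPM against 33.8, 31.9 and 35.3 CPM, with the third knockout library below all others, and its log2 fold change was 0.05 ± 0.09.

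The 6 subunits of the MCM helicase, Mcm2 to Mcm7, unwind DNA at the replication fork. Their log2 fold changes ran from -0.05 for Mcm2 to 0.15 for Mcm3, 4 of 6 above 0, with a median of 0.04. Summed over the 6 subunits, the knockout libraries held between 624 and 757 CPM and the controls between 641 and 733 CPM. Mcm3 was measured at 123, 129, 110 and 118 CPM in the knockout and 103, 102 and 120 CPM in the controls, with the third control among the knockout libraries. Mcm4, at -0.04 ± 0.11, was measured at 105, 104, 79.7 and 78.8 CPM against 89.4, 91.95 and 101 CPM, and its knockout libraries lay on either side of the controls. Mcm5 and Mcm7 differed by 0.06 ± 0.08 and 0.07 ± 0.08. Mcm6 varied most, at 120, 99.8, 74.2 and 85.2 CPM in the knockout and 95.6, 76.4 and 106 CPM in the controls, with a knockout coefficient of variation of 20.7%. Its highest and lowest values both lay in the knockout, and its log2 fold change was 0.03 ± 0.16. Gins2, a subunit of the GINS complex that joins the MCM helicase, was measured at 21.4, 26.5, 33.8 and 31.1 CPM against 23.3, 29.3 and 25.5 CPM, a log2 fold change of 0.12 ± 0.15. The gene overlaps Gse1 on the opposite strand, which fell in the knockout (log2 fold change -0.61 ± 0.12, edgeR adjusted p = 0.0104), and the labels do not say whether counting used strand. Ccnd1, Ccne2, Mcm7, Ccna2 and Cdc20 also overlap a protein-coding gene on the opposite strand, and none of those neighbours was called by edgeR.

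Pcna, Tyms and Rrm2 serve DNA synthesis itself. Pcna, the sliding clamp of the DNA polymerases, was measured at 169, 169, 159 and 160 CPM in the knockout and 156, 128 and 164 CPM in the controls, a log2 fold change of 0.14 ± 0.09. The second control was the lowest library, and the third control lay among the knockout values. Tyms, which makes thymidylate, differed by -0.01 ± 0.08 on the log2 scale. Rrm2, the small subunit of ribonucleotide reductase, was measured at 48.7, 54.0, 44.8 and 46.3 CPM against 53.1, 54.5 and 51.3 CPM, a log2 fold change of -0.13 ± 0.09, with the second knockout library among the controls. Only Ccnd1 had a lower fold change than Rrm2 among the members.

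**Figure D3:**
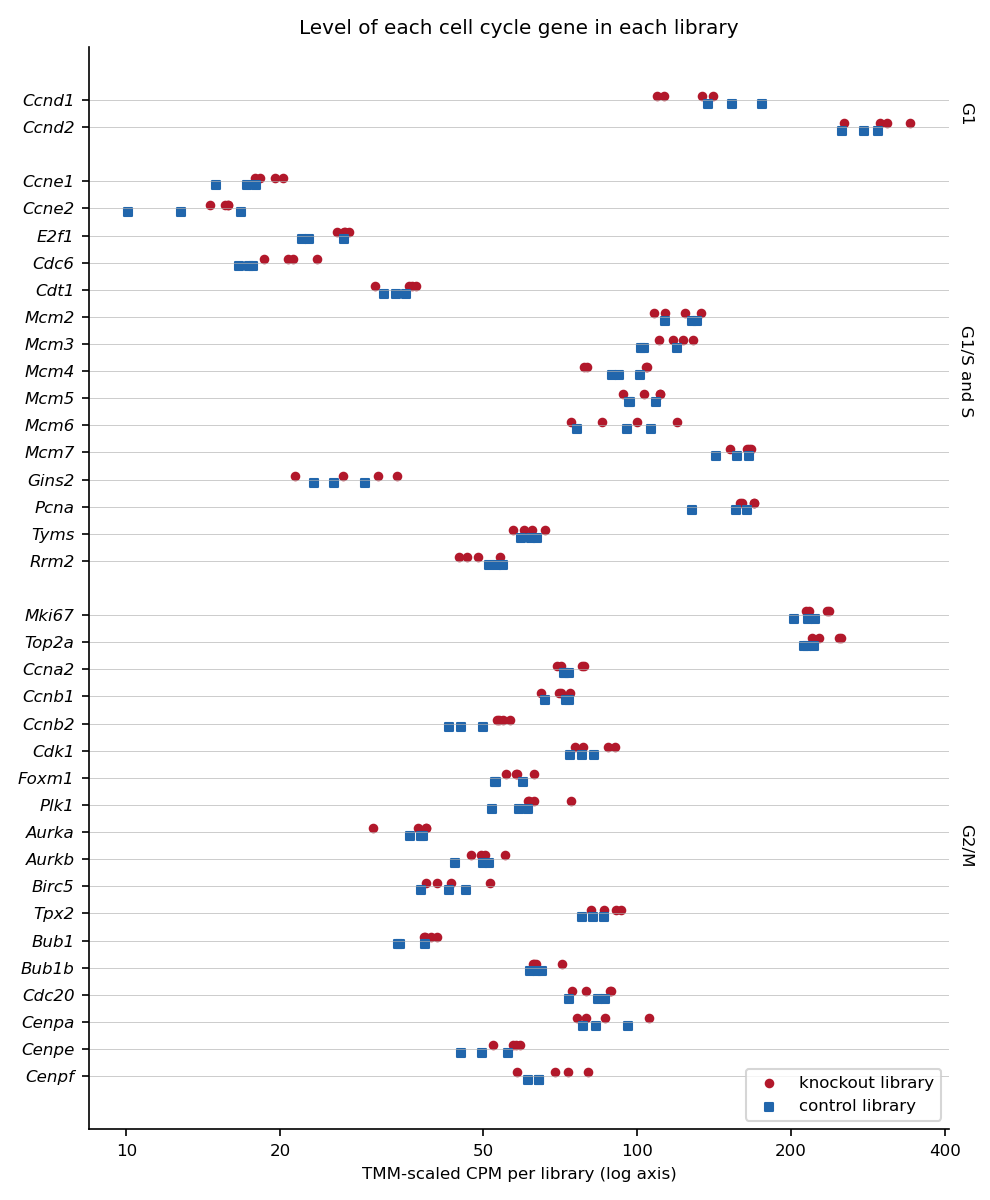
TMM-scaled CPM of each member (log axis), with 1 point per library, circles for knockout and squares for control. Knockout and control points overlap for all members except Cdc6 and Ccnb2, for which the 4 knockout points lie above the 3 control points.

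The mitotic cyclins and Cdk1 form the kinase that starts mitosis. Ccnb2, at chr9:70407692-70421547 (mm10, minus strand), had the smallest p of all members. It was measured at 53.7, 54.5, 53.1 and 56.4 CPM in the knockout and 45.2, 42.7 and 49.9 CPM in the controls. All knockout libraries were above all controls and close to each other, with a coefficient of variation of 2.63%. The log2 fold change was 0.25 ± 0.08, with an edgeR adjusted p of 0.107. A pseudogene, Ccnb2-ps on chromosome 8, was listed at 9.57 ± 0.609 CPM (SD, n = 4) against 7.88 ± 1.06 CPM (SD, n = 3), and the labels do not say how reads shared by both were assigned. The closely related Ccnb1 differed by -0.01 ± 0.08 on the log2 scale and Ccna2 by 0.03 ± 0.08. Cdk1 was measured at 78.2, 87.6, 75.5 and 90.4 CPM against 74.0, 78.0 and 82.2 CPM, a log2 fold change of 0.09 ± 0.09 with overlapping groups. Foxm1, the factor that drives many mitotic genes, differed by 0.09 ± 0.08.

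Mitotic kinases and their partners varied in the same small range. Plk1, the polo-like kinase of mitotic entry and exit, was measured at 61.1, 62.7, 61.4 and 74.1 CPM in the knockout and 58.7, 61.2 and 52.0 CPM in the controls, a log2 fold change of 0.18 ± 0.10. The fourth knockout library stood above the rest, while the second control lay among the others. Aurka, the kinase of spindle poles, and its activator Tpx2 differed by -0.04 ± 0.10 and 0.10 ± 0.08. Aurkb and Birc5, kinase and survivin subunit of the chromosomal passenger complex, differed by 0.06 ± 0.09 and 0.04 ± 0.11. None of the 5 was called, with a smallest edgeR adjusted p of 0.318.

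Bub1 and Bub1b act in the spindle checkpoint, and Cdc20 activates the anaphase-promoting complex that the checkpoint holds back. Their log2 fold changes were 0.14 ± 0.08, 0.03 ± 0.08 and 0.03 ± 0.09. Bub1 was measured at 38.3, 39.5, 40.6 and 38.5 CPM in the knockout and 38.4, 34.0 and 34.4 CPM in the controls, so that only the first knockout library was below the highest control. Of the centromere genes, Cenpa, the histone H3 variant that marks centromeres, was measured at 76.2, 79.3, 86.4 and 105 CPM in the knockout and 83.1, 95.8 and 78.2 CPM in the controls. The knockout values ran from the lowest to the highest of all 7 libraries, and the log2 fold change was 0.02 ± 0.12. Cenpe, a kinetochore motor, and Cenpf, a kinetochore protein, differed by 0.17 ± 0.09 and 0.15 ± 0.10, neither called. Cenpe was measured at 58.9, 57.8, 52.2 and 57.0 CPM against 56.0, 45.1 and 49.7 CPM, where only the third knockout library was below the first control.

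Mki67 and Top2a are the usual tissue markers of dividing cells. Mki67 was measured at 214, 237, 217 and 236 CPM in the knockout and 223, 216 and 203 CPM in the controls, a log2 fold change of 0.08 ± 0.08 (95% interval -0.09 to 0.25). Top2a, the topoisomerase that untangles chromosomes, was measured at 250, 248, 220 and 227 CPM against 212, 222 and 215 CPM, a log2 fold change of 0.13 ± 0.08 (95% interval -0.04 to 0.30). The groups overlapped for both.

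Levels between genes are compared per length, as the FPKM the authors deposited (counts scaled for gene length and library size). In the controls Pcna was the most abundant member at 60.8 ± 7.60 FPKM (SD, n = 3), followed by Cdc20 at 42.4 ± 3.07, Mcm7 at 34.1 ± 2.07 and Ccnd1 at 32.2 ± 4.09 FPKM. Mcm7 and Ccnd1 did not differ beyond their spread. The least abundant was Cdc6 at 3.22 ± 0.0592 FPKM, with Ccne2 at 3.68 ± 0.918 and Cenpf at 3.99 ± 0.162 FPKM next. The median over the members was 16.4 FPKM in the controls and 16.7 FPKM in the knockout.

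Within each library the S phase and mitotic members could be summed to ask whether the balance of phases moved. The 15 G1/S and S phase members summed to 1173, 1166, 1033 and 1077 CPM in the knockout and 1033, 1027 and 1148 CPM in the controls. The third control lay between the knockout libraries, and the third knockout matched the lower controls. The 18 G2/M members summed to 1472, 1551, 1389 and 1529 CPM against 1392, 1424 and 1382 CPM, with the third knockout again inside the control range. The ratio of the G2/M sum to the S phase sum was 1.26, 1.33, 1.34 and 1.42 in the knockout and 1.35, 1.39 and 1.204 in the controls, so the groups overlapped. The median log2 fold change was 0.07 over the S phase members and 0.08 over the G2/M members, 11 of 15 and 16 of 18 above 0. In the larger batch alone, which leaves out 2 libraries, the medians were 0.13 and 0.06 and again 0 members were called, and with batch as a covariate they were 0.07 and 0.08. Without control replicate 3 they were 0.11 and 0.09, so the order of the 2 medians was not stable to leaving out 1 library. It also turned without knockout replicate 3 (0.11 and 0.10) or knockout replicate 4 (both 0.07), and without control replicate 2 the medians were 0.02 and 0.07.

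**Figure D4:**
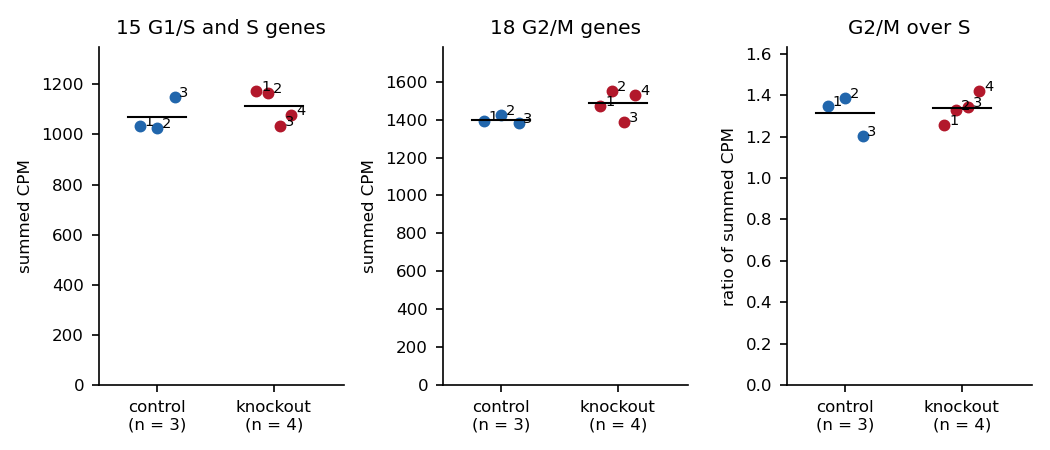
Summed CPM (y axis) of the 15 G1/S and S phase members, of the 18 G2/M members, and the ratio of the second sum to the first, in each library, with points numbered by replicate and lines at the group means. Knockout replicate 3, at 1033 and 1389 CPM, sits among the controls, and control replicate 3 has the highest S phase sum of its group, 1148 CPM.

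A wider list of 155 other cell cycle genes, of which 154 were tested, held 3 genes that rose and 0 that fell, beside 1.94% and 4.87% of all tested genes, so the share that rose was near that of all genes. Cdkn2a was left out by the filter on low counts. At an unadjusted p below 0.05, 18 were higher and 3 lower, beside 9.39% and 11.8% of all tested genes. The median log2 fold change was 0.09, against 0.02 over all genes. Brip1, a helicase of the Fanconi anaemia repair pathway, was measured at 33.6, 35.4, 32.4 and 33.6 CPM in the knockout and 23.9, 24.97 and 23.6 CPM in the controls. The groups stood clearly apart, with a log2 fold change of 0.48 ± 0.09 and an edgeR adjusted p of 0.00705. Dtl, which directs the destruction of Cdt1 during S phase, was measured at 44.8, 54.7, 47.8 and 47.6 CPM against 36.7, 35.3 and 36.7 CPM. Its log2 fold change was 0.43 ± 0.09 with an edgeR adjusted p of 0.0151, but leaving out any 1 control library ended the call (adjusted p 0.0603, 0.0805 and 0.0509 without control replicates 1, 2 and 3). Tmpo, which encodes the nuclear lamina protein LAP2, was measured at 330, 375, 349 and 350 CPM against 304, 271 and 264 CPM, a log2 fold change of 0.33 ± 0.09 with an edgeR adjusted p of 0.0435. That call was lost without any 1 library except the first knockout, with adjusted p from 0.0620 to 0.195. In the larger batch alone the adjusted p was 0.0533 for Brip1, 0.0759 for Dtl and 0.180 for Tmpo, and 0 of the 154 genes were called higher.

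By role, 2 of 32 other S phase genes and 1 of 41 other G2/M genes rose, beside 1.94% of all tested genes, and the medians of both lists were 0.10. None of the 27 genes of origins and the replisome was called (median 0.10, edgeR), with Pold1, the catalytic subunit of DNA polymerase delta, at 0.24 ± 0.08 and an adjusted p of 0.119. None of the 20 checkpoint, APC/C and chromosomal passenger genes was called (median 0.02, edgeR). There Zwint, a kinetochore protein, was measured at 158, 121, 126 and 136 CPM in the knockout and 165, 164 and 170 CPM in the controls, with a log2 fold change of -0.30 ± 0.09 and an edgeR adjusted p of 0.0836. Without the first knockout library, the highest of that group, its adjusted p was 0.0158. Among 11 genes of cell cycle kinases, cyclin D3 and phosphatases (median 0.13), Chek1, the kinase of the replication checkpoint, was nearest the threshold at 0.44 ± 0.13 and an edgeR adjusted p of 0.0611. Among 17 genes of the Rb family, the E2F factors and the DREAM complex (median 0.05), Mybl2, which encodes B-Myb, was at 0.23 ± 0.11 with an adjusted p of 0.262.

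**Figure D5:**
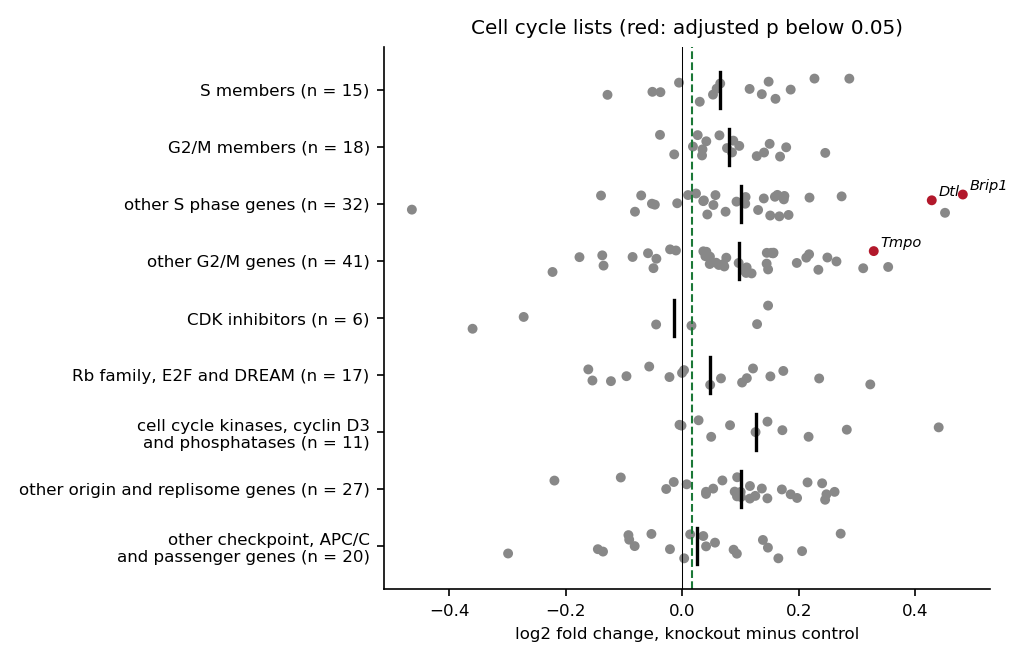
Log2 fold change, knockout over control, of the tested genes in each cell cycle list (points, red where called), with a bar at the median of each list and a dashed line at the median of all genes tested. Brip1, Dtl and Tmpo are the 3 genes called higher, at 0.48, 0.43 and 0.33.

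The inhibitors of cyclin-dependent kinases hold cells out of the cycle, and none of the 6 tested was called by edgeR. Cdkn1b, which encodes p27, was measured at 186, 199, 159 and 154 CPM in the knockout and 184, 165 and 169 CPM in the controls, with a log2 fold change of 0.02 ± 0.10. The control range lay inside the knockout range. Cdkn1c, which encodes p57, was measured at 427, 363, 370 and 471 CPM against 359, 365 and 380 CPM, a log2 fold change of 0.15 ± 0.10. Cdkn1a, which encodes p21, differed by -0.27 ± 0.10 with an adjusted p of 0.148. Cdkn2d, which encodes p19Ink4d and is known to keep hair cells out of the cycle after birth in mice, was measured at 27.8, 29.5, 32.2 and 39.4 CPM against 41.4, 42.2 and 40.3 CPM. Every knockout library was below every control, the fourth by the smallest margin, and the log2 fold change was -0.36 ± 0.12 with an edgeR adjusted p of 0.0922. Without the fourth knockout library the adjusted p was 0.0160, in the larger batch alone it was 0.0403, and with DESeq2 it was 0.0457. Cdkn2b and Cdkn2c differed by -0.04 ± 0.39 and 0.13 ± 0.14.

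Marker genes of other cell types differed between the groups, and their part in the cell cycle values was not tested. The counts of markers that rose or fell stand beside 1.94% of all tested genes called higher and 4.87% called lower. Of 12 neuronal markers, 10 fell and the sum ran from 590 to 913 CPM in the knockout and from 1708 to 1930 CPM in the controls. Of 8 glial markers, 3 fell, with sums of 705 to 894 against 1170 to 1267 CPM, and of 6 markers of the greater epithelial ridge, a field of columnar cells beside the hair cells, 2 fell, with sums of 1208 to 1381 against 1807 to 2293 CPM. Of 8 tested epithelial markers, 3 rose, with overlapping sums of 902 to 1127 and 777 to 917 CPM. Of 8 markers of periotic mesenchyme, 3 rose, with overlapping sums of 1648 to 2330 and 1606 to 1796 CPM. The 7 macrophage markers held 2 that rose, with sums of 103 to 133 and 78.7 to 103 CPM that overlapped narrowly. Of 6 cartilage markers, 1 rose, with overlapping sums of 6202 to 8744 and 5278 to 6393 CPM, and Acan and Hapln1 were at 0 in at least 1 library. Of 8 prosensory markers 2 fell, with overlapping sums of 645 to 759 and 721 to 805 CPM, and of 7 hair cell markers 1 rose, with sums of 230 to 254 against 207 to 224 CPM. Calb1, of the greater epithelial ridge list, was at 0 in at least 1 library, the epithelial marker Pax8 was not tested, and the endothelial, erythroid and melanocyte lists held 0 called genes by edgeR.

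Tested genes were also grouped by the motif in their promoter, whether or not they are known cell cycle genes. The 464 tested genes with an E2F match in the promoter had a median log2 fold change of 0.04, with 6 called higher (1.29%) and 10 lower (2.16%). The 1403 with a CHR had a median of 0.03, with 34 higher (2.42%) and 51 lower (3.64%). The 4583 with a CCAAT box had a median of 0.02, with 101 higher (2.20%) and 199 lower (4.34%). The 214 with a CHR and 2 or more CCAAT boxes had a median of 0.05, with 6 higher (2.80%) and 3 lower (1.40%). Among all 12027 tested genes with a promoter in the table, the median was 0.02, with 257 higher (2.14%) and 609 lower (5.06%). These lists overlap with the members and with each other, and no test was made between them.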

How the data were processed

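RNA from cochlear epithelium at embryonic day 16 was sequenced in 4 knockout and 3 control libraries. Per the labels' protocols, RNA was extracted with an RNeasy Micro kit and libraries were made with a NEBNext Ultra kit. The submitters' processing notes list the build mm10 and, as tools, HISAT2 2.0.5, featureCounts 1.5.0-p3, CASAVA 1.8, DESeq2 1.20.0 and fastp. Their roles, their settings and any use of strand are not stated there.

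The deposited gene values are estimated counts, not raw ones: the values of all 21368 genes with no 0 in any library were multiples of 1/12 (tolerance 0.001), and in 17795 of 17795 genes whose fractions differ between libraries the fractions divided the libraries into the same batches of 5 and 2. No label records this step, and the batches are known from the values alone. The design had assumed counts, and its test was kept after rounding. A constant moved per gene and batch, inferred from these fractions, would change log fold changes. The deposited FPKM values equalled the rounded count divided by gene length, up to a factor per library, for 99.99% of values (relative tolerance 0.01), so they carry the same adjustment.

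Genes were filtered with filterByExpr, scaled by TMM and tested with edgeR 4.0.16 (quasi-likelihood, robust, no covariates, 5 residual degrees of freedom) in R 4.3.3, with Benjamini-Hochberg adjustment over 17341 genes and an adjusted p below 0.05. The common biological coefficient of variation was 14.9%. The script was tested on simulated counts. Alternatives used DESeq2 1.42.0, limma 3.58.1 on log2(FPKM + 1) and log2(FPKM + 0.1), DESeq2 size factors, no filter, batch as a covariate, the larger batch alone, replicate numbers as a block, and each library left out. Overlaps between genes were read from the gene coordinates deposited with the counts.

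The members and lists were chosen with earlier results of these data known. Every member is described by its role. In each wider list the genes named are those past the threshold, or, where none is, the tested gene with the smallest p, together with all CDK inhibitors and Smarca4; Ccnb2-ps and Gse1 were added after their values were seen. Totals were 16097811 to 18871636 counts per library, and the intervals cover the spread between libraries.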

Additional observations from a re-analysis of the deposited data

Results flagged for a closer look

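Of 53 gene and sum measures examined in the 4 knockout libraries, 4 had 1 library far from the other 3, by Dixon's criterion, which chance meets in about 1 of 20 groups. Cdt1 was at 30.7 CPM in knockout replicate 3, against 35.8 to 36.8 CPM in the others. Aurka was at 30.5 CPM in the same library, against 37.3 to 38.5 CPM. Plk1 was at 74.1 CPM in knockout replicate 4, against 61.1 to 62.7 CPM. Bub1b was at 71.1 CPM in knockout replicate 2, against 62.6 to 63.5 CPM.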

How the results depend on the processing

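Under 16 alternatives no member was called: of 560 member values, 526 kept their sign and stayed uncalled, and 34, in 12 members, changed sign with no call either way. The smallest adjusted p of any member was 0.0750, for Ccnd1 with DESeq2. The medians of the S phase members ran from 0.02 to 0.13 and those of the G2/M members from 0.04 to 0.10. Smarca4 was called lower under all 16. Among all genes, 337 were called higher and 845 lower in the fit reported. Higher calls numbered 517 with DESeq2, 219 in the larger batch alone, 207 with batch as a covariate and 106 to 348 with 1 library left out. Lower calls numbered 438 in the larger batch alone and 450 to 847 with 1 library left out. Of the other cell cycle genes, 3 higher and 0 lower as reported, the higher count was 0 in the larger batch alone, 1 with limma on log2(FPKM + 1) and on log2(FPKM + 0.1), and 1 to 3 with 1 library left out, while the lower count was 2 with DESeq2, 1 in the larger batch alone and 0 to 1 with 1 library left out. Over the 16 alternatives, lower calls among all genes ran from 438 to 1160. The higher count of the other cell cycle genes ran from 0 to 4. The cause of these changes was not tested. Chek1 and Zwint were called with DESeq2 (adjusted p 0.0339 and 0.0412). Whether replicate numbers pair the samples was not settled. Deviations of libraries sharing a title number correlated at -0.10, -0.17 and 0.05. Those sharing number 4 in the description correlated at -0.51, but these 2 libraries are the whole smaller batch. If a constant was added per gene in that batch, as the fractions imply, both libraries share it, so their correlation cannot decide whether they were paired. With the title numbers as a replicate block, 180 genes were higher, and 1 other cell cycle gene was higher and 1 lower. With the description numbers as a replicate block, 74 genes were higher and 536 lower, and 0 other cell cycle genes were higher. No member was called with either block.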
